A study of Caenorhabditis elegans with 4 samples.

Results

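Chromosome II of the nematode Caenorhabditis elegans carried 2530 of the 15152 RNA polymerase II peaks (16.7%) in the series-wide peak list, 467 of 2838 (16.5%) in the list of ChIP replicate 1 and 474 of 2843 (16.7%) in that of ChIP replicate 2. Its members were every peak that the lists place on II, whatever the score. The study profiled AMA-1 by chromatin immunoprecipitation and sequencing (ChIP-seq) in embryos of mixed stages of strain N2, which the labels call wild type, from a mixed population of males and hermaphrodites. The antibody entry describes an affinity-purified rabbit polyclonal against AMA-1. The library titles carry a further code of the same form that this entry does not name. Which antibody served for each library is therefore not settled here. The libraries were 2 AMA-1 ChIP replicates and 2 input DNA replicates, and peak lists were at hand for the ChIP libraries and for the series as a whole. All libraries share a growth protocol named for RNAi, a temperature of 20 degrees Celsius and the title tag RiIMB1. The labels neither spell that tag out nor give an RNAi target. The peaks are therefore those of embryos grown under that protocol and cannot be taken as those of untreated embryos. The labels do not say whether each replicate was a culture of its own, and differences between the lists may be technical.

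AMA-1 is the large, catalytic subunit of RNA polymerase II, the enzyme that transcribes protein-coding genes and many small RNA genes. ChIP-seq against it marks the DNA on which polymerase sits in a population of cells, whether it is elongating, held near a start site or bound at an end. C. elegans autosomes have a gene-dense central region with little recombination, flanked by arms that recombine more and hold more repeats and more members of expanded gene families. Many worm genes lie close together or in operons, so that polymerase on neighbouring genes can merge into one broad signal. In whole embryos, strong polymerase in few cells and weak polymerase in many cells cannot be told apart.

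Peaks on II came in very different sizes in the different lists, which also name their caller differently, as MACS for the replicates and MACS v2 for the series. Series-wide peaks were short. Their width ranged from 146 to 17591 bp, and 350 bp was the median, with quartiles at 212 and 703 bp. Replicate peaks were several kb wide, and the median was 3273 bp in replicate 1, with quartiles at 1926 and 5963 bp, and 2957 bp in replicate 2, with quartiles at 1784 and 5443 bp. The bases covered differed less. The series-wide peaks covered 2.01 Mb of II (13.1% of its span of 15.3 Mb), those of replicate 1 covered 2.28 Mb (14.9%) and those of replicate 2 covered 2.02 Mb (13.2%). A small number of wide peaks made up much of this. In the series-wide list, the 132 peaks of 3 kb or more held 37.1% of the bases, and the 253 peaks with the best scores held 44.9%. The score is the authors' peak score, which has no unit in the files and is compared here only within a list. In the series-wide list on II its median was 5.73 (quartiles 3.85 and 9.88), and it reached 189.14. In the replicate lists many scores were exactly 3100, taken here as a ceiling, which 55 peaks of II (11.8%) reached or passed in replicate 1 and 32 (6.75%) in replicate 2, against 10.1% and 6.86% of the whole lists.

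Polymerase peaks were more frequent towards both ends of II than in its middle. II was divided into 3 parts of equal length, 5.09 Mb each. The series-wide list held 919 peaks in the left part, 662 in the middle part and 949 in the right part, or 180.5, 130.0 and 186.4 peaks per Mb. Replicate 1 had 172, 117 and 178 peaks in the same order, and replicate 2 had 161, 127 and 186. The outer parts together were 1.41 times as dense as the middle part in the series-wide list, 1.50 times in replicate 1 and 1.37 times in replicate 2, a mean of 1.43 ± 0.0916 over the replicate lists (SD, n = 2). Boundaries at 5 and 12 Mb, close to where recombination changes along II, gave 1.37 by number of peaks. By covered bases at these boundaries the left part lay below the middle in the series-wide list (12.1% against 12.4%). It also did so in replicate 2 (11.8% against 12.6%), but not in replicate 1 (14.4% against 14.1%). The right part was covered most in each list. The other chromosomes had ratios from 1.30 to 1.41 in the series-wide list, so the pattern is not particular to II. No test over samples applies to 1 chromosome with 2 replicate lists, and the ratios are given as a description.

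The left and right parts differed in covered bases and in their best-scoring peaks more than in their number of peaks. The left part had 0.968 times as many series-wide peaks as the right part, with 0.966 in replicate 1 and 0.866 in replicate 2. By covered bases the ratio was 0.783, since series-wide peaks covered 12.2% of the left part, 11.6% of the middle part and 15.6% of the right part. The replicates gave the same order of right over left, with 14.7% (left), 13.3% (middle) and 16.7% (right) in replicate 1 and 11.9%, 11.7% and 16.0% in replicate 2. Of the 253 best-scoring series-wide peaks, 71 lay in the left part, 63 in the middle and 119 in the right, a left-to-right ratio of 0.597. Over the better-scoring 50% the ratio was 0.908. The median series-wide score differed little, at 5.50 on the left and 5.86 on the right. In the replicates it differed more, at 249.7 and 328.6 in replicate 1 and 180.9 and 249.5 in replicate 2. Peaks at the score ceiling were also most numerous on the right, with 11 left, 18 middle and 26 right in replicate 1 and 4 left, 9 middle and 19 right in replicate 2. As a share of the peaks of a part, the right did not lead in replicate 1, with 26 of 178 against 18 of 117 in the middle. It did in replicate 2, with 19 of 186 against 9 of 127. The lead of the right part by number depended on the boundaries. With boundaries at 5 and 12 Mb the middle part is 7.0 Mb long and the right part 3.28 Mb. The 253 best-scoring peaks then divided into 67 left, 103 middle and 83 right. Ceiling peaks numbered 11, 29 and 15 in replicate 1 and 4, 17 and 11 in replicate 2.

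The middle part had fewer but wider replicate peaks. Replicate 1 peaks there had a median width of 4718 bp and a median score of 536.6, against 2944 bp and 282.5 in the outer parts. In replicate 2 the median width was 3812 bp in the middle and 2765 bp in the outer parts, and the median score 408.4 and 217.7. The share of middle peaks above the list's own median score was 59.0% against 46.9% of outer peaks in replicate 1, and 57.5% against 47.3% in replicate 2. Series-wide peaks did not show this. Their median score was 5.73 in the middle and in the outer parts alike, and 50.0% of middle and 49.9% of outer peaks lay above the list's median. Among the series-wide peaks found in both replicate lists the order was turned round. Of these, 44.8% of middle and 52.0% of outer peaks lay above the median of this smaller set. A difference in peak strength between middle and ends of II therefore depended on the list.

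**Figure D1:**
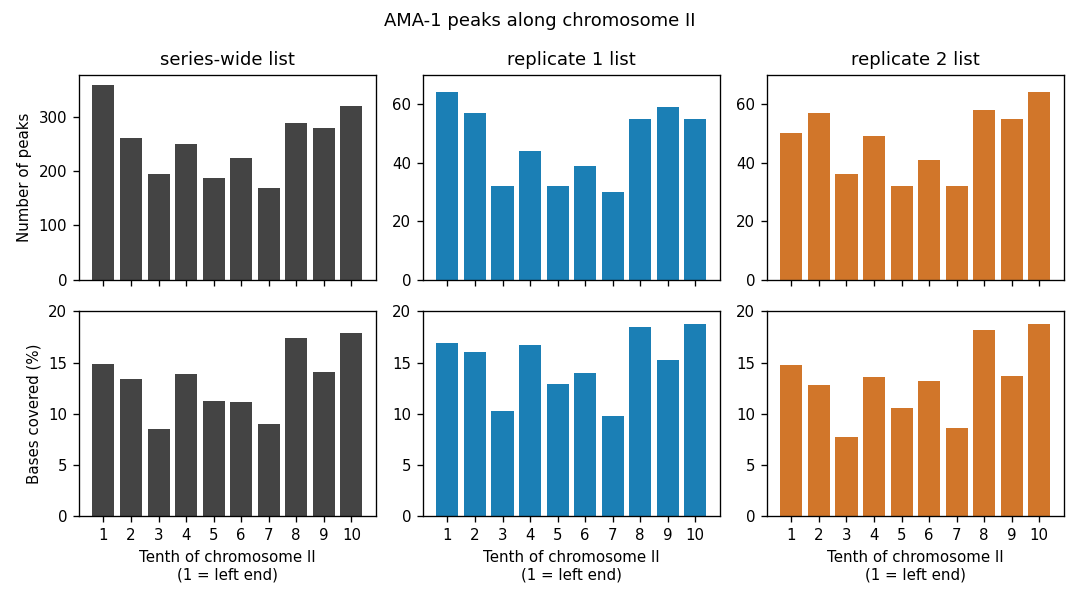
Number of AMA-1 peaks (upper row) and share of bases covered by them in percent (lower row) in 10 equal stretches of chromosome II, from the left end (1) to the right end (10), in the series-wide list and in both replicate lists. The third and the seventh stretch are low in every list, at 8.52% and 9.03% of bases covered in the series-wide list, and the eighth and the last are high, at 17.4% and 17.9%.

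At finer scale the outer stretches were not evenly filled. Dividing II into 10 equal stretches, the first held 359 series-wide peaks and the last 319, while the seventh, from 9165263 to 10692806, held 169. The third stretch, from 3055088 to 4582631, lies within the left part but had only 194 series-wide peaks over 8.52% of its bases, 32 replicate 1 peaks over 10.3% and 36 replicate 2 peaks over 7.79%. The eighth stretch, from 10692807 to 12220350, was covered to 17.4% by the series-wide list, 18.5% by replicate 1 and 18.1% by replicate 2, with 289, 55 and 58 peaks. Coverage was thus lowest in the third and seventh stretches and highest in the eighth and last in all 3 lists.

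Over the 61 complete windows of 250 kb, the series-wide list had a median of 42 peaks (quartiles 25 and 52). The fullest window, from 2.0 to 2.25 Mb, held 93 series-wide peaks, 19 of replicate 1 and 18 of replicate 2. Yet its best series-wide score was 42.84, and only 5 of its peaks were among the 253 best of II. The window from 0.25 to 0.5 Mb followed with 87 series-wide peaks, 14 of each replicate and a best score of 68.69. The window from 14.0 to 14.25 Mb had 82, with 12 of replicate 1, 15 of replicate 2 and a best score of 146.54. The emptiest windows lay from 6.0 to 6.25 Mb and from 12.25 to 12.5 Mb, with 8 series-wide peaks each, and from 6.5 to 6.75 Mb, with 11. The first of these had 1 peak of replicate 1 and 0 of replicate 2, and the second 0 of replicate 1 and 2 of replicate 2. Across the 61 windows, covered bases of the replicate lists had a Spearman's rho of 0.89 and their numbers of peaks one of 0.78, as a description of windows that share libraries and whatever the lists have in common. Replicate 1 covered more bases than replicate 2 in 46 windows and fewer in 15. The largest excess of replicate 1 was from 10.0 to 10.25 Mb, with 31.8 kb against 6.87 kb in replicate 2. The largest in the other direction was from 14.25 to 14.5 Mb, with 48.9 kb in replicate 1 and 69.4 kb in replicate 2.

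The strongest polymerase regions of II were wide, and nearly all were at the score ceiling in both libraries. The 20 best-scoring series-wide peaks had scores from 119.32 to 189.14, with 118.77 for the next peak below. They were 3.60 to 17.6 kb wide (median 7.80 kb) and together held 8.36% of the series-wide bases of II. All 20 overlapped a peak in both replicates. The replicate 1 peak stood at the score ceiling for 20 of 20 and the replicate 2 peak for 19 of 20. Of these peaks, 4 lay in the left part, 5 in the middle and 11 in the right. With boundaries at 5 and 12 Mb the numbers were 4, 8 and 8, in parts of 5.0, 7.0 and 3.28 Mb. Whether the series-wide list was made from the same reads is not stated, so its scores are not read as independent evidence for the replicate peaks.

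The best of them, with a score of 189.14, spanned 12.7 kb near the right end, from 15013350 to 15026041. Replicate 1 drew it as part of a peak of 25.1 kb and replicate 2 as one of 14.6 kb, so that the extra length in replicate 1 lay on the left side. That replicate 1 peak also overlapped a further replicate 2 peak. The next, from 11535108 to 11539254, was among the narrowest of the 20 at 4.15 kb, with a score of 186.86 and replicate peaks of 8.45 and 6.50 kb. The strongest peak of the middle part ran from 6960380 to 6968661 (8.28 kb, score 185.29) inside replicate peaks of 17.3 and 10.1 kb. Here too the replicate 1 peak overlapped a further replicate 2 peak. The peak from 12938859 to 12945078 (score 183.21) measured 8.46 kb in replicate 1 and 6.88 kb in replicate 2. That from 13521055 to 13531255 (score 180.36) had nearly the same outline in both libraries, with 10.99 and 10.7 kb.

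Several of these peaks were neighbours. In the middle part, 4 of the 20 lay within 165.5 kb, from 5543263 to 5708781. They were the peaks that start at 5543263 (score 149.97), 5599552 (130.44), 5659131 (162.42) and 5701493 (133.45), each 6.73 to 11.6 kb wide. Their replicate peaks were alike in width, at 9.39 to 12.6 kb in replicate 1 and 9.19 to 12.5 kb in replicate 2. In the right part, 6 of the 20 lay between 13521055 and 14254375, over 733.3 kb. This group holds the widest series-wide peak of II, 17.6 kb from 13812189 to 13829779 with a score of 158.05, and a second of 10.3 kb that begins 0.404 kb further on (score 144.24). In each replicate a single peak spanned them, 31.7 kb in replicate 1, the widest of its list on II, and 28.4 kb in replicate 2, which covered 98.5% of the second. The peak from 13852558 to 13857543 (score 156.82) follows them, and those that start at 14011442 (146.54) and 14248390 (123.84) close the group. A further 3 of the 20, which start at 11159856, 11535108 and 11971790, were spread over 821.4 kb.

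The left part had 4 of the 20, each alone. The peak from 3103159 to 3111260 (score 148.47) was the only one of the 20 below the ceiling in a replicate. Replicate 1 set it in a peak of 26.8 kb that spanned 18 series-wide peaks, the most in any replicate 1 peak of II. The replicate 2 peak over it was 9.53 kb wide and scored 322.1. A further replicate 2 peak under the same replicate 1 peak scored 569.4. At 4169494 to 4180506 (score 141.0) replicate 1 had a peak of 15.6 kb, while that of replicate 2 measured 5.67 kb and covered 48.7% of the series-wide peak. The peak from 1447079 to 1450681 (score 120.51) was the narrowest of the 20, at 3.60 kb, and the replicates bounded it alike, at 4.30 kb in replicate 1 and 4.29 kb in replicate 2. The peak from 2551098 to 2557218 (score 119.32) measured 24.3 kb in replicate 1 and 11.4 kb in replicate 2. Replicate 2 had further peaks under the same replicate 1 peak, among them one of 8.125 kb. Of the 20 peaks, 16 were wider in replicate 1, 5 of them by over 1.5 times, and 4 were wider in replicate 2, 0 by over 1.5 times. These are widths of the replicate peak over each series-wide peak, and further peaks beside it were not counted.

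**Figure D2:**
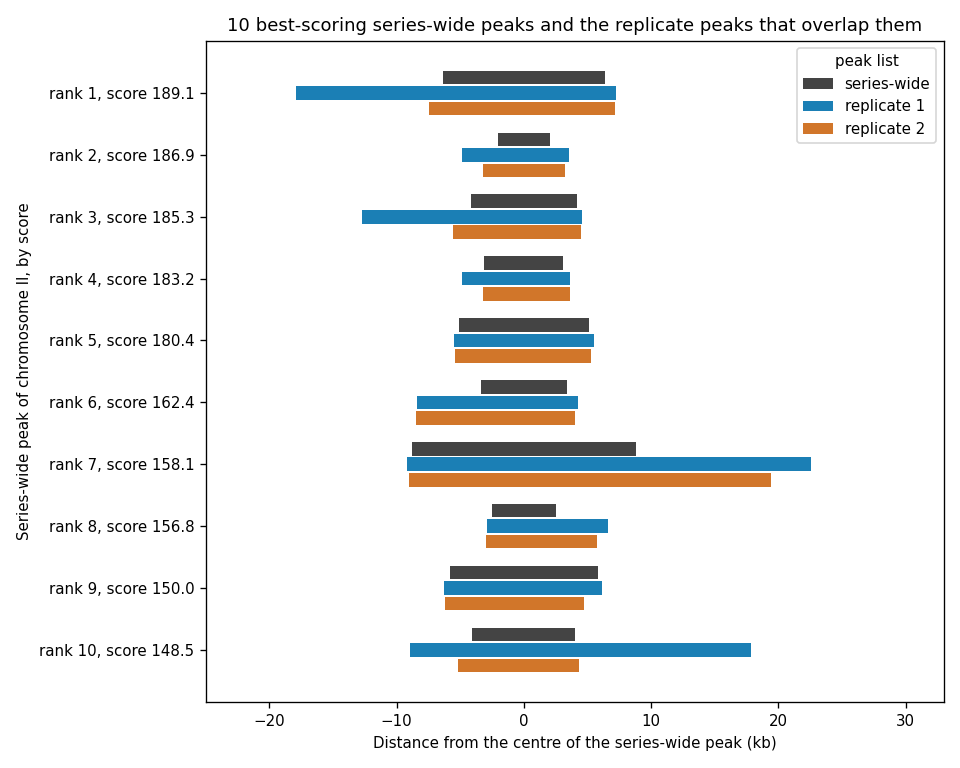
The 10 best-scoring series-wide peaks of chromosome II, one row each, with the replicate 1 and replicate 2 peak that overlaps each of them. They are drawn to scale as distance in kb from the centre of the series-wide peak. Other peaks nearby are left out, those of the replicate lists included. At ranks 1, 3 and 10 the replicate 1 peak reaches much further to one side than the replicate 2 peak drawn. The widths are 25.1 against 14.6 kb, 17.3 against 10.1 kb and 26.8 against 9.53 kb. At these ranks the replicate 1 peak also overlapped a further replicate 2 peak, which is not drawn. At rank 5 the outlines nearly coincide.

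Not all of the widest replicate peaks belonged to the 20 best-scoring regions. The second widest replicate 1 peak of II, from 11613199 to 11643615 (30.4 kb), was at the ceiling, while the replicate 2 peak over it, the widest of that list at 29.7 kb, scored 665.4. The series-wide list broke it into 5 peaks with a best score of 85.11. From 11863798 to 11890581 replicate 1 had a peak of 26.8 kb and replicate 2 one of 20.7 kb, both at the ceiling. In the left part, the widest replicate 2 peaks ran from 240996 to 263195 (22.2 kb, score 2788.0) and from 2993455 to 3012660 (19.2 kb, score 2101.2), over replicate 1 peaks of up to 19.6 and 22.7 kb.

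Series-wide peaks on II lay in tight clusters. When neighbours with at most 1 kb between them were joined, the 2530 peaks formed 867 clusters, of which 385 were single peaks, 315 held 2 to 4 peaks and 167 held 5 or more. The clusters of 5 or more took in 1310 peaks (51.8%), against 15.2% for the single ones. Clusters of 10 or more peaks numbered 36, with 15 in the left part, 4 in the middle and 17 in the right. All clusters together were 58.3 per Mb in the left part, 48.1 in the middle and 63.8 in the right, so the ends stood out less by clusters than by peaks. The median score was 6.23 over the peaks in clusters of 5 or more and 4.81 over the single peaks. Of the single peaks, 41 (10.6%) were found in both replicate lists and 269 (69.9%) in neither. Of the peaks in clusters of 5 or more, 664 (50.7%) were in both and 136 (10.4%) in neither. These shares were not set against those of other chromosomes and are not read as particular to II. Replicate peaks are broad enough to span several short ones, so peaks of 1 cluster share their replicate peak and are not separate observations.

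Of the 5 clusters with most peaks, 4 had best scores of at most 30.41, and the fifth, with 17 peaks from 14381117 to 14408360, had one of 102.59. One of the largest held 20 peaks over 18.3 kb, from 6931466 to 6949721, with 74.8% of its length covered. Its best score was 15.75, its 3 replicate 1 peaks were at most 6.95 kb wide, and 17 of the 20 peaks were in both replicate lists. Another of 20 peaks, from 10991106 to 11009504 (18.4 kb, 58.6% covered, best score 22.92), was marked by short replicate peaks of at most 2.75 and 2.84 kb. None of its 20 peaks was in both lists and 12 were in neither. In the left part, clusters of 18 peaks (528311 to 546705, best score 28.47) and 17 peaks (443717 to 463395, best score 30.41) lay 64.9 kb apart. By covered bases the leading cluster was the one from 13809682 to 13843812, with 31.0 kb under 10 peaks, followed by those from 11613489 to 11642752 (28.4 kb under 5 peaks) and from 11864152 to 11890626 (25.4 kb under 7 peaks). The cluster that starts at 14381117 came next, with 24.1 kb under 17 peaks. The last of the leading 5 held the best peak of II, from 15002423 to 15026620, with 22.8 kb under 8 peaks.

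A cluster in the right part was strong in one library and had no peak in the other. From 14381117 to 14408360, 17 series-wide peaks covered 24.1 kb of 27.2 kb, with scores up to 102.59 at the right edge. Replicate 2 had 3 peaks there, of 13.8, 1.93 and 11.9 kb with scores of 540.4, 247.8 and 3100. Replicate 1 had none, although both replicates had a peak 8.30 and 8.19 kb to the left and one 24.7 and 24.5 kb to the right of the cluster. The last of these 3 peaks had the highest score of all replicate 2 peaks of II without a partner. In the opposite direction, the first and the third of the replicate 1 peaks without a partner lay side by side, from 10067408 to 10075667 (score 2046.3) and from 10059852 to 10067277 (score 1784.5). The series-wide list had 5 peaks there over 16.6 kb, with a best score of 28.47. A pair of wide series-wide peaks lay outside both replicate lists, from 6835077 to 6841962 (6.89 kb, score 38.08) and from 6842034 to 6849533 (7.50 kb, score 37.26). Only 7 of the 633 series-wide peaks in neither list reached 1 kb, and only 3 a score of 20. The third, from 11988835 to 11989162, was 328 bp wide with a score of 21.17, and the next, at 7001353 and 11047076, scored 19.18 and 17.8. The 27.2 kb cluster and the regions around 10067408 and 6842034 were singled out after their values had been seen. Read counts were not used here, so a missing peak does not show that polymerase was absent.

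**Figure D3:**
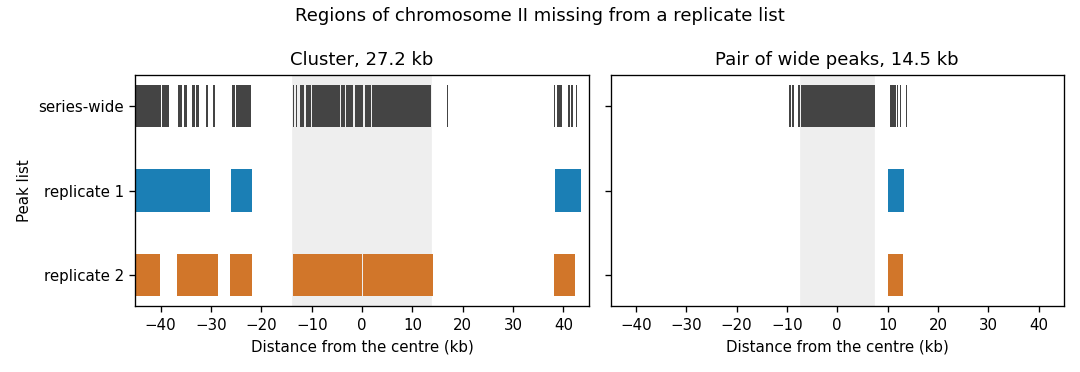
Peaks of the series-wide list and of both replicate lists around the 27.2 kb cluster (left panel) and around the 14.5 kb pair of wide peaks (right panel), drawn to scale as distance in kb from the centre, with the region itself shaded. The shaded cluster is filled by series-wide and replicate 2 peaks and has no replicate 1 peak, and the shaded pair has no peak of either replicate, whereas both replicates have a peak further to the right in each panel.

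Most clusters of 5 or more peaks on II held a peak of both replicates. Of the 167 clusters of 5 or more peaks, 137 (82.0%, 95% Wilson interval 75.5 to 87.1%) held a peak of both replicates, against 82.4% of the 957 such clusters of all chromosomes. A further 17 (10.2%) held one of replicate 1 only, 12 (7.19%) one of replicate 2 only and 1 (0.599%) of neither, against 10.0%, 5.22% and 2.3% over all chromosomes. These shares lie near the background. Clusters seen in 1 replicate were also shorter, with median lengths of 4.31 kb (replicate 1 only) and 4.57 kb (replicate 2 only) against 7.91 kb for those seen in both. The intervals cover counting error only and take neighbouring clusters as independent.

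Between the replicate lists, 339 of the 467 replicate 1 peaks of II (72.6%, interval 68.4 to 76.4%) overlapped a replicate 2 peak by at least 1 bp, against 71.8% over all chromosomes. In the other direction it was 368 of 474 (77.6%, interval 73.7 to 81.2%), against 77.0%. Both shares lay close to the background. The lists had 1.58 Mb in common, which was 69.5% of the replicate 1 bases and 78.5% of the replicate 2 bases of II. The share was higher among peaks of higher score. In the lowest 25% of scores 45.3% of replicate 1 peaks and 58.0% of replicate 2 peaks had a partner, and in the highest 25% of scores 95.7% and 95.8%. The background above is for whole lists, and these shares by score were not set against other chromosomes. Width moved with score, and with it the room for an overlap. The median width was 1607 bp in the lowest and 8320 bp in the highest 25% of replicate 1, and 1507 and 6881 bp in replicate 2, and the part of width in the share was not tested. By part, 66.9% (left), 79.5% (middle) and 73.6% (right) of replicate 1 peaks had a partner, and 77.0%, 79.5% and 76.9% of replicate 2 peaks. In the left part, 115 of 172 replicate 1 peaks and 124 of 161 replicate 2 peaks had a partner. All replicate 1 peaks there covered 750.6 kb, against 607.9 kb in replicate 2. There were 256 pairs in which each peak met no other, and across them Spearman's rho was 0.77 for scores and 0.80 for widths, as a description of peaks that share libraries. Of these pairs 25 were at the ceiling in both lists, 19 in replicate 1 only and 1 in replicate 2 only. A further 46 replicate 1 peaks overlapped 2 or more replicate 2 peaks, up to 6, and 25 replicate 2 peaks overlapped 2 or more of replicate 1, up to 3.

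Of the 2530 series-wide peaks of II, 979 (38.7%, interval 36.8 to 40.6%) overlapped a peak in both replicate lists, against 38.7% over all chromosomes. A further 570 (22.5%) overlapped replicate 1 only, 348 (13.8%) replicate 2 only and 633 (25.02%) neither, against 23.0%, 12.2% and 26.2%. The share in replicate 2 only had an interval of 12.5 to 15.2%, which lay above the 12.2% over all chromosomes. The other shares had intervals that took in the background. These intervals treat peaks as independent, although neighbours can share a replicate peak. The peaks in both held 67.3% of the series-wide bases, with a median width of 683 bp, and those in neither 9.30%, with 224 bp. The peaks were ordered by score into 10 groups of 253. In the lowest group (scores of 1.32 to 2.88) 19.4% were in both lists, and up to the sixth group the share was at most 30.8%. It was 39.5% and 43.9% in the seventh and the eighth, 71.1% in the ninth (11.7 to 20.02) and 87.4% in the highest (20.16 to 189.14). The share in both was 36.9% in the left part, 41.8% in the middle and 38.3% in the right, with overlapping intervals. Of the 132 series-wide peaks of 3 kb or more, 115 were in both lists, 6 in replicate 1 only, 9 in replicate 2 only and 2 in neither. Those in neither are the pair that meets at 6842034. The counts by width and by score were not set against other chromosomes and are not read as particular to II. Nearly every replicate peak held a series-wide peak, 465 of 467 in replicate 1 and 469 of 474 in replicate 2, with a mean of 3.33 and 2.82 per peak.

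**Figure D4:**
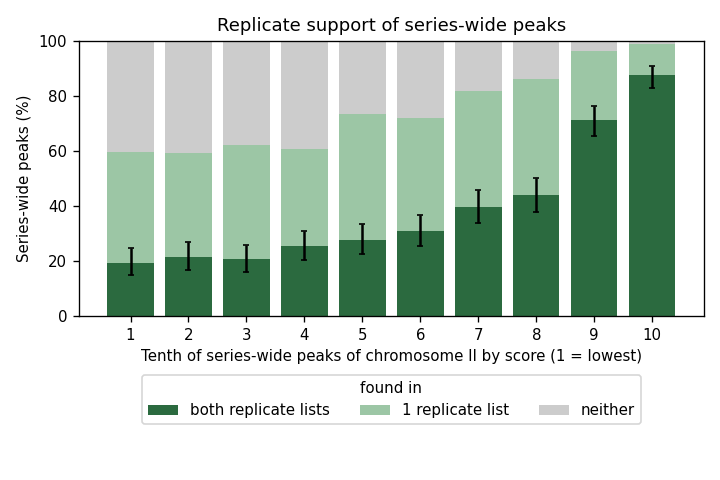
Series-wide peaks of chromosome II in 10 groups of equal size by score, from lowest (1) to highest (10), as the percent found in both replicate lists, in 1 of them or in neither; whiskers are 95% Wilson intervals of the share in both. The share in both is 19.4% in the lowest group, 71.1% in the ninth and 87.4% in the highest.

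Between the peaks, II had long stretches without polymerase signal above the callers' thresholds. The median distance from one series-wide peak to the next was 457 bp (quartiles 149 and 1935 bp), and 65.8% of distances were at most 1 kb. At the other extreme, 60 stretches of 50 kb or more made up 4.91 Mb, or 32.1% of II. Of these, 19 lay in the left part, 25 in the middle and 16 in the right. In the replicate lists such stretches numbered 89 in replicate 1 and 92 in replicate 2 and made up 56.0% and 57.8% of II. Without a peak in any list there were 58, with 31.1% of II.

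The longest stretch without a series-wide peak ran from 12345178 to 12522651 (177.5 kb), in the right part, 416.2 kb to the left of one of the 20 strongest peaks. It was followed by one in the left part, from 3786076 to 3958625 (172.6 kb), and one in the middle, from 6603329 to 6775089 (171.8 kb). The peaks on either side of the first were 496 and 148 bp wide, with scores of 7.66 and 4.48, and those of the second 146 and 252 bp, with 4.17 and 4.48. The third, bounded by peaks with scores of 3.53 and 2.94, was touched by no peak of either replicate. The highest border score of the 8 longest stretches was 25.81, to the left of the one that starts at 1153487. Further stretches ran from 1153487 to 1303083 (149.6 kb), 724554 to 869234 (144.7 kb), 9750724 to 9885797 (135.1 kb), 7472379 to 7604313 (131.9 kb) and 7894991 to 8015784 (120.8 kb). In all 8, the only replicate peak lying wholly inside was one of replicate 2 between 724554 and 869234, with a score of 83.46. Elsewhere replicate peaks reached in over an edge or stayed out. Counting peaks of any list, the first 4 stretches kept lengths of 176.6, 172.4, 171.8 and 149.1 kb, and the next was 134.7 kb long, from 9750724 to 9885387. The longest stretches of single replicate lists were longer and not empty in the series-wide list. That of replicate 1, from 12228864 to 12522227 (293.4 kb), held 9 series-wide peaks with a best score of 9.98. That of replicate 2, from 5923065 to 6268388 (345.3 kb), held 14 with a best score of 12.52. This last stretch begins 214.3 kb to the right of the group of 4 strong peaks that ends at 5708781.

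**Figure D5:**
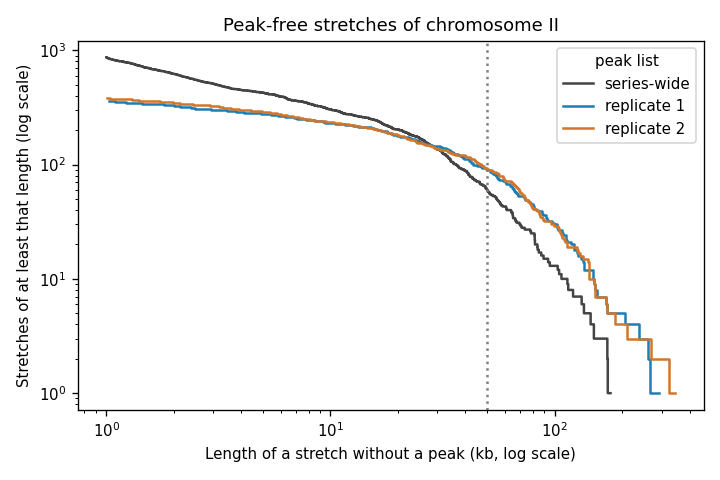
Number of stretches of chromosome II without a peak that are at least as long as the value on the horizontal axis (kb), for the series-wide list and both replicate lists; both axes are logarithmic, stretches under 1 kb are left out and the dotted line marks 50 kb. The replicate curves nearly coincide, with 89 and 92 stretches of 50 kb or more, and the series-wide curve ends earlier, at 177.5 kb.

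No chromosome length was used, and the span of II was taken to end at its last listed peak base. The first series-wide peak began at 24466 and the first of replicate 1 at 23245, while replicate 2 began at 40991. The last series-wide peak ended at 15274461, that of replicate 1 at 15274867 and that of replicate 2 at 15275438. The last peak was weak in replicate 1, with a score of 96.83, and higher in replicate 2, with 417.3. In the outermost 100 kb, the series-wide list had 14 peaks on the left and 28 on the right, replicate 1 had 5 and 3, and replicate 2 had 2 and 4.

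Among the 6 chromosomes II took the third place by density of peaks and by covered bases in all 3 lists, below I and III. It had 165.6 series-wide peaks per Mb, against 148.7 per Mb over the other 5 chromosomes, a ratio of 1.11. In replicate 1 the density was 30.6 on II and 27.9 per Mb on the others, and in replicate 2 it was 31.0 and 27.9. Series-wide peaks covered 13.1% of II, against 11.6% of the others, with II between III (16.4%) and IV (12.0%). With 1 chromosome against 5, an exact permutation over chromosomes cannot give a p below 0.167, so that no test could set II apart. The median width on II was 350 bp against 343 bp on the others in the series-wide list, 3273 against 3043 bp in replicate 1 and 2957 against 2712 bp in replicate 2. The median score was lower on II in the series-wide list, at 5.73 against 5.86, and higher in the replicates, at 309.3 against 266.2 in replicate 1 and 237.8 against 220.5 in replicate 2. In the series-wide list II had 3.93 stretches of 50 kb or more per Mb, and the others had from 3.12 on III to 6.21 on X. The number of genes on each chromosome was not taken into account.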

How the data were processed

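The data were 3 peak lists in WormBase WS220 coordinates, per the file headers: 1 per AMA-1 ChIP replicate, with MACS named as caller, and 1 for the series, with MACS version 2 named. Per the submitters' processing notes, BWA and the ce10 assembly were used. Not given in the sources used here are calling settings, use of the input and pooling. The deposited values are start, end and a peak score of the authors. Read depth is unknown, so precision rests on numbers of peaks.

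Peaks were placed by their midpoint. Overlap meant at least 1 bp, and replicate scores of 3100 or more were treated as tied. The span of II ended at its last listed peak base. Parts, clusters (gaps up to 1 kb), windows and stretches were counted in Python 3.11.15 with numpy 2.4.6, pandas 2.3.3 and scipy 1.17.1; figures used matplotlib 3.10.9. Counting was tested on simulated lists. No test between groups was run, because the input libraries enter with no peaks and replicates are only 2. Named regions followed a rule: the 20 best scores, the leading clusters, the longest stretches, the fullest and emptiest windows, the ends, the widest replicate peaks and the best peaks in neither list. Members and rules were chosen with earlier results of these data known. Gene annotation and sequence in WS220 coordinates were not used here.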

Additional observations from a re-analysis of the deposited data

How the results depend on the processing

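Among replicate 1 peaks of II, the share with a replicate 2 partner was 57.0% when 50% of each peak had to overlap and 66.6% by midpoint, against 72.6%. For replicate 2 it was 56.1% with 50% of each peak. The share of series-wide peaks in both lists was 36.2% with 50% of the shorter peak, 36.1% by midpoint, 54.6% in the better-scoring 50% and 87.4% in the best-scoring 10%. With 1 replicate list left out it was between 52.5% and 61.2%, since a peak then has to be in 1 list only. Under its 9 alternatives the density of outer over middle parts was above 1. It was 1.27 for peaks in both replicates, 1.51 for the best-scoring 10%, 1.20 by covered bases and 1.27 by clusters, and from 1.37 to 1.50 with 1 replicate list. The left-to-right ratio stayed below 1 under its 9 alternatives, at 0.597 for the best-scoring 10%, 0.783 by covered bases, 0.878 with boundaries at 5 and 12 Mb, and 0.866 to 0.966 with 1 replicate list. The share of peaks above the median score of the set used was 0.0535 percentage points higher in the middle than in the outer parts. This difference was 10.2 to 12.1 points with 1 replicate list and -7.23 points for series-wide peaks in both replicates. The cause was not tested. Joining gaps up to 5 kb gave 427 clusters. The longest stretch was 295.5 kb for the better-scoring 50%, which has fewer peaks, and 293.4 to 345.3 kb with 1 replicate list, and stretches of 50 kb or more then numbered 89 to 92. The density of II relative to the other chromosomes was 1.13 by covered bases, 1.17 for the best-scoring 10% and 1.09 to 1.11 with 1 replicate list. The rank correlation of scores was 0.61 over all 395 overlapping pairs, 0.83 over 266 reciprocal pairs and 0.62 without the pairs at the ceiling. In all, 24 alternative values stayed close to the reported one, 30 moved further from it and 1 was reversed. Close meant within 1.5 times for counts and within the spread of the replicate lists or the interval for other values. For the density ratios of the parts of II, the values with 1 replicate list are themselves part of that spread. No paired analysis was possible because peaks of the input DNA were not analysed here.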
